A study of Mus musculus with 25 samples.

Results

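The mitosis genes are 49 genes whose products run chromosome condensation, spindle assembly, the spindle checkpoint, mitotic exit and cytokinesis. They were chosen by name from a list grouped by role, with no expression value in the rule, and each name was found once among the 54429 entries of the expression table. RNA-seq had been done on 25 cultures of cortical astrocytes from C57BL/6J mice, the star-shaped glial cells of the brain, isolated with an antibody to the astrocyte surface protein HepaCAM and grown in vitro. The 9 groups were EGFR DMSO (solvent control, 3 libraries), EGFR inhibitor (3), P53 DMSO (3), P53 inhibitor (3), HBEGF (2), HBEGF withdrawal (2) and in-vitro day 2, day 7 and day 14 (3 each). Either inhibitor was put into the medium on day 2 in vitro, while HBEGF was supplied or left out from the day of preparation. EGFR is the receptor for epidermal growth factor, HBEGF (heparin-binding EGF-like growth factor) is one of its ligands, and P53 is the tumour suppressor transcription factor. The names and doses of the inhibitors, the day of harvest in the inhibitor and HBEGF experiments, and whether the other groups' medium held HBEGF are not given in these sources. Nor are the animals behind each replicate, so a p-value here measures only how far these libraries spread, which may be technical.

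Mitosis genes are switched on together late in the cell cycle: the MuvB core with B-MYB and then FOXM1 activates them in G2 and M phase, and in resting cells the same core, as part of the DREAM complex with p107 or p130 and E2F4, represses them. Many of their promoters carry a CHR (cell cycle genes homology region), bound by MuvB, and CCAAT boxes, bound by NF-Y. EGFR signals through the ERK pathway and D-type cyclins to entry into the cell cycle, and in tissue most mature astrocytes do not divide, so mRNA of these genes in a culture reports on the cells that are cycling.

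The promoters of some members are shown first, since the rule did not use sequence and most of the promoters at hand hold the 2 motifs. RefSeq (GRCm38.p6) windows of 300 bases, from 250 before to 50 after an annotated transcription start, were at hand for 41 of the 49 members (43 windows, since Ect2 and Prc1 have a pair of overlapping windows each). Each line gives the 120 bases that end just before the start, 5′ to 3′ on the gene's strand. Capitals mark every CHR (TTTGAA or TTCGAA) and every CCAAT, read on either strand, so that TTCAAA and ATTGG are the same motifs on the other strand. Cdk1 is at chr10:69352913-69353032 (minus strand), Top2a at chr11:99024190-99024309 (minus), Cdc20 at chr4:118437344-118437463 (minus), Ube2c at chr2:164769809-164769928 (plus), Kif11 at chr19:37376262-37376381 (plus), Espl1 at chr15:102296173-102296292 (plus) and Ncaph, shown as a promoter with neither motif, at chr2:127133955-127134074 (minus).
Cdk1: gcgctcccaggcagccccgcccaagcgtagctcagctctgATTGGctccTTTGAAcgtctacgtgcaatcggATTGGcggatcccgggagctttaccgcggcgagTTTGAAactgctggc
Top2a: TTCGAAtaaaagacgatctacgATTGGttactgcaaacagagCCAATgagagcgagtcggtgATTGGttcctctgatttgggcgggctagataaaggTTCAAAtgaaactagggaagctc
Cdc20: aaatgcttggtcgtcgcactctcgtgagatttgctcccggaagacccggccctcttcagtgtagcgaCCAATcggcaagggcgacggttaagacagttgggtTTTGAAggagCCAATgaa
Ube2c: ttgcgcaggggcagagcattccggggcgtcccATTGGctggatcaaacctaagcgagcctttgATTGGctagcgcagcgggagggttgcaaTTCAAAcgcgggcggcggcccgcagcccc
Kif11: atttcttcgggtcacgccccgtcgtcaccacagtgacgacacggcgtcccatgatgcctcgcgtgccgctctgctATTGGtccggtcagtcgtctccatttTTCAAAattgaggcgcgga
Espl1: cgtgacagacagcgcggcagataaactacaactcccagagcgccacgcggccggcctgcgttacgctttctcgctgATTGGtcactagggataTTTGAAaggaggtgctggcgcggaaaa
Ncaph: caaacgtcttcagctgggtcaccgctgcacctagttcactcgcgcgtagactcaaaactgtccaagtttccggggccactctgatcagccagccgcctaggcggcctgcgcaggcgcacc

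In the whole 300-base windows, CHR letters stood in 79.07% of the members' windows (34 of 43) and in 19.23% of all 32851 RefSeq promoter windows of the same length. A CHR within 50 bases of the start stood in 69.77% of members' windows and in 5.306% of all windows. CCAAT letters stood in 79.07% against 37.41%, and at least 2 of them in 51.16% against 11.7%. Both motifs together stood in 72.09% of members' windows and in 7.525% of all windows. The windows of Melk, Birc5, Mad2l1, Nuf2, Nusap1 and Ncaph held neither. In the members, the 46 CHR matches had a median position of -10 from the start and the 77 CCAAT matches one of -67, so the CHR letters lay nearer to the start. A match of letters is a description and not a measured binding site.

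**Figure D1:**
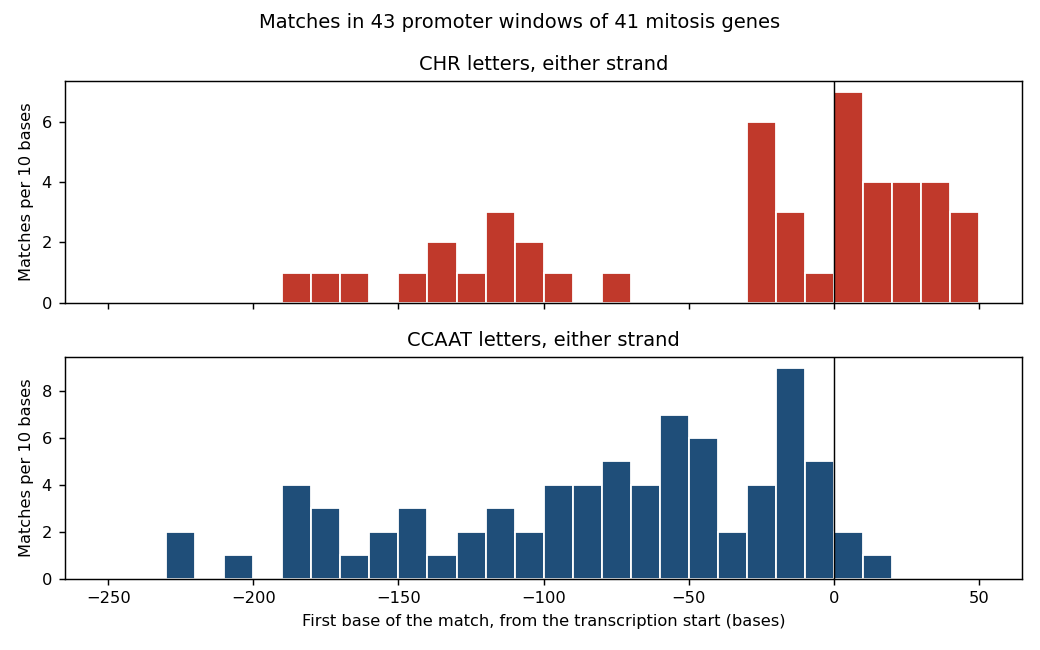
Number of CHR (top) and CCAAT (bottom) matches per 10 bases, by the position of the first base of the match from the transcription start (x axis, bases), in 43 windows of 41 mitosis genes. CHR matches gather around the start (median -10) and CCAAT matches upstream of it (median -67).

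The values deposited are RPKM, reads scaled to gene length and sequencing depth, with the whole gene span including introns as the length, so levels of different genes were compared only after the length had been replaced by exon length (a level per exonic kilobase). Read totals were 4011124 to 9694918 per library (median 6109312), and the fewest reads behind a member in any library were 9 (Nek2). Each comparison was tested with limma on log2(RPKM + 1) in 1 fit over all 25 libraries, and a gene was called where its p-value, adjusted by Benjamini and Hochberg over the 13850 genes with at least 1 RPKM in at least 2 libraries, was below 0.05. A fold on this scale understates the change of low genes, so ratios of mean RPKM are given beside it. Of the 49 members 48 were tested; Melk, a kinase expressed in dividing progenitors, stayed below 1 RPKM everywhere and is described by its values alone. In bulk RNA, fewer dividing cells and less of these mRNAs per cell cannot be told apart. Of the members, 15 share exonic bases with another annotated gene, among them Ccna2 with Exosc9, Kif20a with Cdc23 and Cdc20 with Elovl1 on the opposite strand. Whether strand was used in counting is not given in these sources, so some of their reads may belong to the partner.

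In the EGFR DMSO libraries Mki67, whose protein Ki-67 coats mitotic chromosomes and is the usual stain for dividing cells, had the highest level per exonic kilobase (140.8). Top2a, the topoisomerase that untangles sister chromatids, followed at 92.3, then Smc4, an ATPase of condensin, at 81.8 and Pbk, a mitotic kinase, at 80.0. Kif20a, a kinesin of the cleavage furrow, at 7.31 and Espl1, the separase that cuts cohesin, at 4.38 were the lowest. The order at the top differed with the inhibitor, where Smc4 was highest (29.1), ahead of Mki67 (23.0) and Top2a (16.9). It differed in the same way without HBEGF, where Smc4 stood at 22.6, Mki67 at 14.12 and Top2a at 12.2. On the mean of log2(RPKM + 1) over the 49 members, day 2 (2.67 to 2.94), the EGFR DMSO libraries (2.62 to 2.80) and HBEGF replicate 2 (2.78) stood highest. The P53 inhibitor libraries (2.39 to 2.42), the P53 DMSO libraries (2.15 to 2.21), 2 of the day 7 libraries (2.25 and 2.31), day 14 (1.85 to 2.27) and HBEGF replicate 1 (1.44) lay between. The EGFR inhibitor (1.04 to 1.13) and HBEGF withdrawal (0.88 and 0.98) libraries lay lowest, with day 7 replicate 3 at 0.78.

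**Figure D2:**
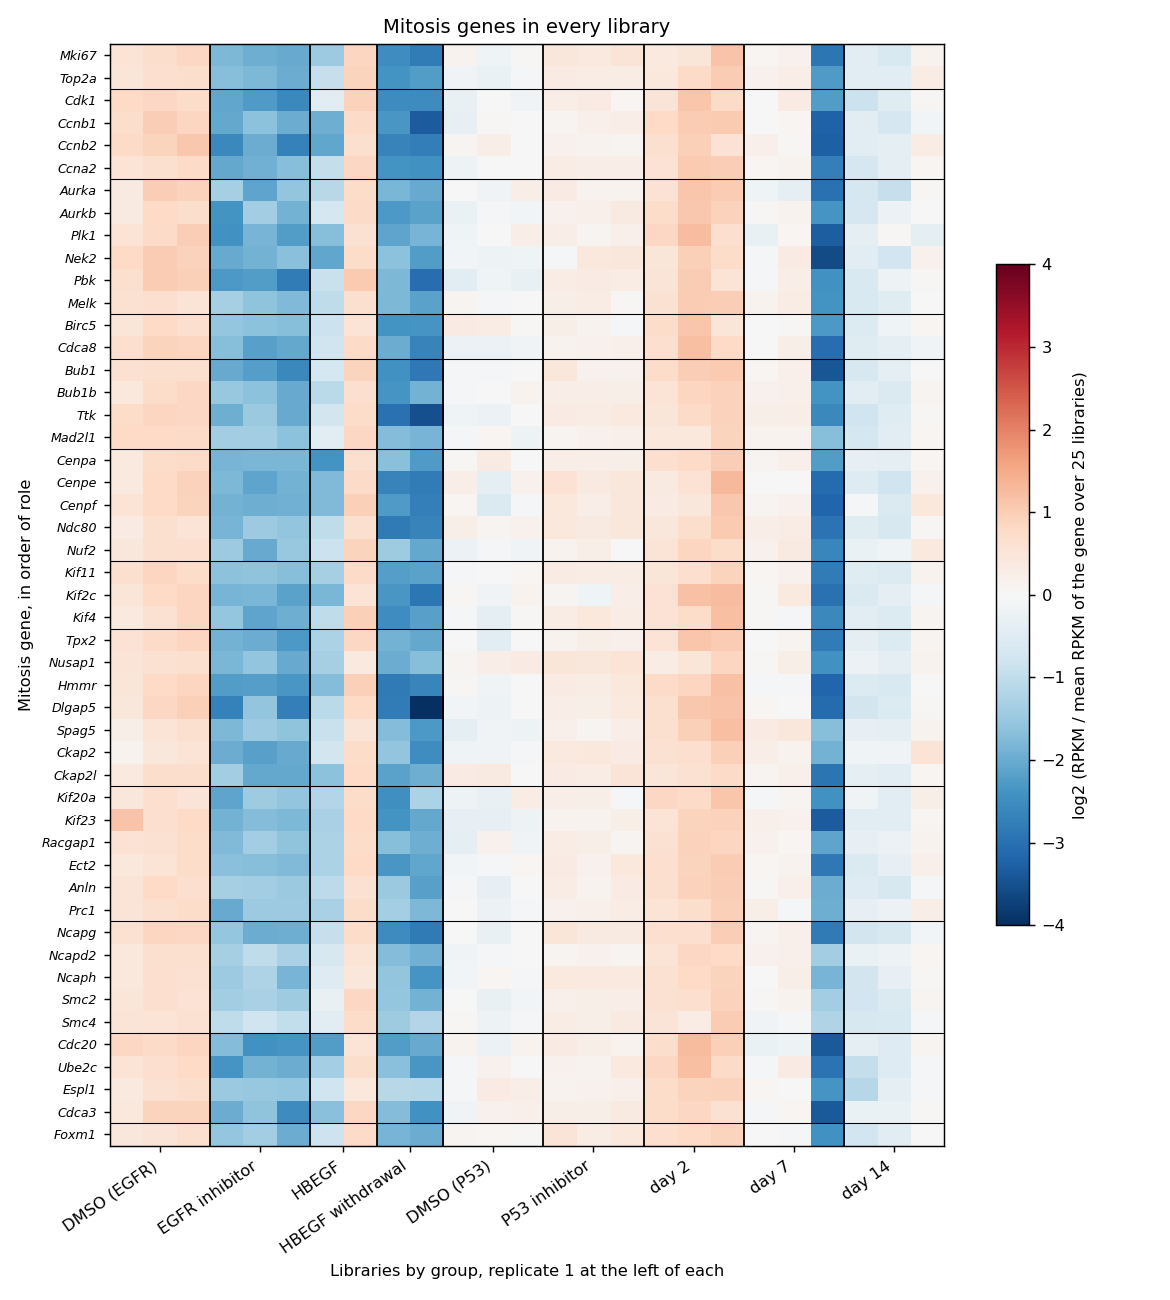
Each row is a mitosis gene in order of role (lines part the roles), each column a library, and the colour is log2 of the RPKM over the gene's mean in 25 libraries, with the darkest blue also covering values past -4. The EGFR inhibitor and HBEGF withdrawal libraries are blue in nearly every gene, and HBEGF replicate 1 and day 7 replicate 3 differ from the other libraries of their groups.

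A pair of libraries stood apart from their own groups before any comparison. Day 7 replicate 3 held the members at a median of 14.0% of the other 2 day 7 libraries (7.56% for Nek2 to 46.8% for Smc4), and it was the lowest of all 25 libraries for 29 of the 49 members and for 1.9% of all tested genes. It lay below both HBEGF withdrawal libraries for 31 members, where 22.5% of all tested genes did. HBEGF replicate 1 held them at a median of 27.6% of HBEGF replicate 2 (12.3% for Cenpa to 51.03% for Ncaph). In the 20 libraries of the 7 groups without either library, the same median ranged from 79.8% to 147.3% of the group's other libraries. Over the 2354 genes whose mean reached 5 RPKM these libraries stood at 101% and 106% of their groups; the gap was in the members and not in genes at large. The gap also differed by role: it was smallest for the condensin subunits (HBEGF replicate 2 over replicate 1, median 2.28-fold; day 7, 2.997-fold) and largest for kinetochore genes in HBEGF (5.72-fold) and for mitotic exit genes on day 7 (8.69-fold). Values of these libraries beyond the members were looked at after the gap had been seen. The MCM2-7 genes, which load the replicative helicase earlier in the cycle, stood at 86.2% of replicate 2 in HBEGF replicate 1 (77% to 92.65%) and at 51.02% in day 7 replicate 3 (47.8% to 59.6%). Ccnd1, the D-type cyclin that EGFR signalling induces, was at 50.2 and 59.8 RPKM in HBEGF replicates 1 and 2, and the ERK-induced phosphatase gene Dusp6 at 42.3 and 33.5 RPKM. The oligodendrocyte markers summed to 17.6 RPKM in HBEGF replicate 1 and 8.65 in replicate 2, and the 7 neuron markers to 6.37 and 4.14. Of the neuron markers Tubb3 was at 1.71 and 0.340 RPKM and Dcx at 1.94 and 0.805 RPKM. Map2 went the other way, at 2.35 and 2.72 RPKM, and Snap25 was at 0.263 and 0.261 RPKM. Day 7 replicate 3 held the neuron markers at a sum of 6.82 RPKM beside 4.59 and 4.86 in the other day 7 libraries. There Tubb3 was at 1.48 beside 0.152 and 0.295 RPKM and Dcx at 1.31 beside 0.250 and 0.161 RPKM. Snap25 was at 0.517 beside 0.247 and 0.392 RPKM, while Map2 was lower, at 3.49 beside 3.93 and 4.01 RPKM. The astrocyte markers of day 7 replicate 3 summed to 170 RPKM beside 144 and 127, and its oligodendrocyte precursor markers to 325 beside 389 and 422. Within the astrocyte sum Sox9 was at 57.9 beside 36.8 and 36.4 RPKM, and Aldoc at 47.2 beside 37.3 and 34.5. Mlc1, Hepacam, Gja1 and Aldh1l1 were lowest of the day 7 libraries in replicate 3. The precursor sum was lower mostly by Olig1, at 192 beside 264 and 273 RPKM. Gpr17 (4.77 beside 2.08 and 2.95 RPKM), Sox10, Pdgfra and Cspg4 were highest in replicate 3. The part of these markers in the gap was not tested. Every comparison that uses either library is given with and without them. They were picked by the members' own values, so leaving them out narrows the members' spread by choice. Calls made without them are therefore no separate support.

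**Figure D3:**
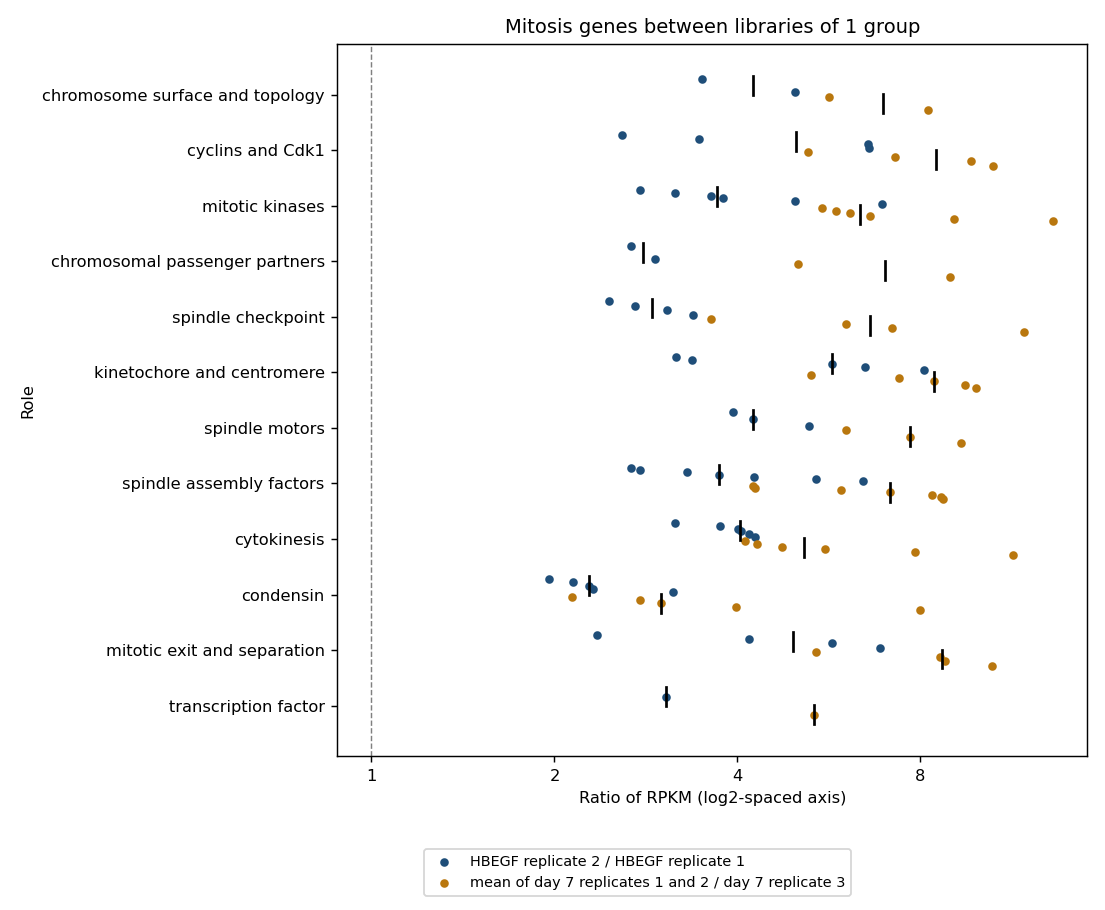
Ratio of RPKM on a log2-spaced axis, by role (rows): each point is a mitosis gene, blue for HBEGF replicate 2 over replicate 1 and orange for the mean of day 7 replicates 1 and 2 over replicate 3, and black ticks are role medians. Every point lies right of 1 (1.96 to 8.10 and 2.13 to 13.2), with the condensin genes nearest to it.

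The first comparison asked what blocking EGFR did to the members. All 48 tested members fell with the EGFR inhibitor against its DMSO, where 22.2% of all tested genes were called lower. The median log2 change of the members was -1.72, beside -0.02 over all genes. In RPKM each of the 49 members was lower in every inhibitor library than in every DMSO library, a pattern that 28.7% of all tested genes showed. Ratios of means ran from 2.81-fold lower (Smc4) to 9.90-fold lower (Ccnb2), with a median of 5.57.

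Of the chromosome genes, Mki67 (chr7:135689784-135716361, GRCm38) was at 47.9, 53.7 and 58.2 RPKM in the DMSO libraries and at 9.41, 8.52 and 8.24 RPKM with the inhibitor. It fell 6.11-fold, by 2.48 on the log2 scale (SE 0.56, adjusted p = 0.00183 by limma). Top2a (chr11:98992943-99024189) was at 24.1, 27.7 and 28.2 against 5.25, 5.005 and 4.40 RPKM, 5.45-fold lower (adjusted p = 0.000651). Within each group the libraries lay close together and the groups were far apart. The engine of mitotic entry is the kinase Cdk1 with its cyclins, and this role had the highest median fold (7.53). Cdk1 (chr10:69335146-69352938) was at 8.30, 8.55 and 7.93 RPKM and at 1.13, 1.0015 and 0.799 RPKM, and fell by 2.23 on the log2 scale (SE 0.34, adjusted p = 4.82e-05). Ccnb2, a B-type cyclin that activates Cdk1, was at 5.06, 5.43 and 6.24 RPKM against 0.496, 0.745 and 0.450 RPKM. The other B-type cyclin, Ccnb1, was 6.60-fold lower (6.33 ± 0.622 against 0.959 ± 0.155 RPKM, SD, n = 3 each). Ccna2, the cyclin A of S and G2 phase, was 5.81-fold lower (33.0 ± 2.56 against 5.68 ± 0.679 RPKM).

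Among the mitotic kinases, Pbk had the largest log2 change of all members, -2.54 (SE 0.41, adjusted p = 8.52e-05 by limma). It was at 10.2, 13.2 and 12.5 RPKM in DMSO and at 1.33, 1.40 and 0.940 RPKM with the inhibitor. Plk1, the polo-like kinase that acts from entry to cytokinesis, was 7.62-fold lower (4.80 ± 0.755 against 0.630 ± 0.123 RPKM). Nek2, which parts the centrosomes, was 6.74-fold lower. The Aurora kinases fell by similar ratios: Aurka, of spindle poles, 5.36-fold (2.60 ± 0.573 against 0.485 ± 0.127 RPKM) and Aurkb, of the chromosomal passenger complex, 5.57-fold (16.4 ± 2.47 against 2.94 ± 0.985 RPKM). Aurkb was the most variable of these with the inhibitor, at 2.03, 3.99 and 2.82 RPKM, yet its highest value there was far below its lowest in DMSO, 13.6 RPKM. Its passenger partners Birc5 (survivin) and Cdca8 (borealin) were 4.87-fold and 6.80-fold lower. Untested Melk was at 0.561 ± 0.0283 RPKM in DMSO and 0.125 ± 0.0188 RPKM with the inhibitor.

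The spindle checkpoint holds anaphase until all kinetochores are attached, and its 4 members fell 4.79-fold (Mad2l1) to 7.31-fold (Bub1). Bub1, a kinase of unattached kinetochores, was at 2.88, 2.996 and 2.95 RPKM in DMSO and at 0.475, 0.412 and 0.321 RPKM with the inhibitor. Mad2l1, which binds and restrains Cdc20, was at 8.70, 8.70 and 8.60 RPKM against 1.92, 1.90 and 1.61 RPKM. Bub1b (BubR1) was 5.21-fold lower (adjusted p = 0.000564 by limma) and the kinase Ttk (MPS1) 6.09-fold lower. Of the kinetochore genes, Cenpa, the histone variant of centromeres, was at 12.1 ± 1.68 RPKM in DMSO and at 2.16 ± 0.0233 RPKM with the inhibitor. Cenpe, a kinetochore kinesin, was 6.32-fold lower and Ndc80, which grips the microtubule, 4.40-fold lower (2.35 ± 0.242 against 0.533 ± 0.0735 RPKM). Of the spindle motors, Kif11, the kinesin that pushes the poles apart, was at 6.40, 7.47 and 6.83 RPKM against 1.31, 1.32 and 1.27 RPKM, an adjusted p of 0.000963. Kif4, a chromokinesin, had a small log2 change (-1.01) at 5.59-fold, because its RPKM was only 1.60 ± 0.252 in DMSO. Among spindle assembly factors, Tpx2, which activates Aurora A, fell 6.95-fold, Hmmr 7.85-fold and Dlgap5, a kinetochore-fibre protein, 8.06-fold (2.82 ± 0.490 against 0.350 ± 0.172 RPKM).

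The cytokinesis genes had a lower median fold (4.73). Racgap1, of the centralspindlin complex that marks the cleavage plane, was at 3.58, 3.69 and 4.01 RPKM in DMSO and at 0.711, 0.919 and 0.784 RPKM with the inhibitor. Its partner Kif23 was 6.50-fold lower, Prc1, which bundles midzone microtubules, 4.77-fold, and Anln (anillin) of the contractile ring 4.20-fold. Ect2, the exchange factor that turns on RhoA at the furrow, had 1 of the smallest log2 changes, -0.89 (SE 0.20, adjusted p = 0.00156 by limma), from 1.38 ± 0.141 to 0.285 ± 0.0112 RPKM. The 5 condensin subunits, which compact chromosomes, had the lowest median (3.87) of any role. Smc4, at 14.0, 14.09 and 14.7 RPKM in DMSO and 4.77, 5.52 and 4.93 RPKM with the inhibitor, was the member with the smallest ratio. Smc2, its partner ATPase, was 3.87-fold and Ncapd2, a condensin I subunit, 3.43-fold lower, while Ncapg, also of condensin I, was 6.04-fold lower. Of the mitotic exit genes, Cdc20, the activator of the anaphase-promoting complex (APC/C), was at 11.2, 10.8 and 11.6 RPKM against 1.93, 1.197 and 1.25 RPKM, 7.69-fold lower. Ube2c, the E2 enzyme of that complex, was 6.71-fold lower (15.6 ± 1.42 against 2.32 ± 0.388 RPKM). Cdca3, a cofactor in degradation of the Cdk1 inhibitor Wee1, had the next largest log2 change after Pbk and Mki67, -2.36 (SE 0.53, adjusted p = 0.00156), and Espl1 the smallest, -0.84 (SE 0.16, adjusted p = 0.000431). Foxm1, the transcription factor, was at 9.69, 10.2 and 11.1 RPKM in DMSO and at 2.46, 2.69 and 1.79 RPKM with the inhibitor, 4.46-fold lower (adjusted p = 0.000755).

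The ratios can be set beside the promoter letters, as a description with no test. With EGFR inhibitor the 32 members whose windows held a CHR were 3.43-fold to 9.90-fold lower (median 5.59), and the 9 without one 4.20-fold to 6.74-fold (median 4.88). The 6 members with neither motif were 4.20-fold to 5.21-fold lower (median 4.73), so these too were lower in every inhibitor library. Cdk1 and Cdc20, printed above with both motifs, were 8.46-fold and 7.69-fold lower, and Ncaph, with neither, 4.20-fold. Espl1, which holds both, was 4.25-fold lower.

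Other values moved with the inhibitor. The 10 astrocyte markers summed to 116 to 147 RPKM in DMSO and 379 to 398 with the inhibitor, and each of the 10 averaged 1 RPKM or more in both groups. Most of the rise lay in Gfap, at 3.12 to 3.75 and then 62.8 to 71.5 RPKM, and in Sox9 and Aldoc. Sox9 was at 33.8 to 47.7 and then 113 to 127 RPKM, and Aldoc at 32.3 to 46.6 and then 101 to 105. Of the 10, 7 were called higher and 1 lower. Aldh1l1 went down, from 1.52, 2.32 and 2.36 to 1.37, 1.42 and 1.001 RPKM. The 6 markers of oligodendrocyte precursors, nearly all of it Olig1 and Olig2, which astrocyte progenitors also express, summed to 322 to 418 RPKM and then 113 to 137. Of the other genes of that list, Gpr17 was at 1.21, 1.85 and 1.43 RPKM in DMSO and at 7.47, 7.55 and 8.59 RPKM with the inhibitor, Pdgfra at 1.47, 1.52 and 1.501 and then 1.99, 2.37 and 1.95 RPKM, and Sox10 at 1.07, 1.97 and 1.56 and then 2.87, 3.43 and 1.96 RPKM. Cspg4 was at 1.43, 0.908 and 1.06 RPKM and then 0.468, 0.454 and 0.438 RPKM. Neuron markers summed to 3.06 to 3.26 RPKM in DMSO and 6.86 to 8.20 with the inhibitor. Of them Tubb3 was at 0.142 to 0.172 and then 2.37 to 3.52 RPKM, and the 3 tested neuron markers were called higher. Snap25 went the other way, at 0.377 to 0.456 and then 0.227 to 0.296 RPKM. Oligodendrocyte markers summed to 3.54 to 5.35 and then 6.71 to 7.19 RPKM, and pericyte or fibroblast markers to 0.191 to 0.342 and then 1.35 to 1.57 RPKM. Microglia markers summed to 0.478 to 0.996 and then 2.51 to 5.61 RPKM, with Cx3cr1 near 0, and endothelial markers to at most 0.0314 RPKM in these 6 libraries. Mitochondrial rRNA took 18.35% to 18.77% of reads in DMSO and 22.2% to 25.32% with the inhibitor. The part of these shifts in the members' change was not tested.

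Leaving out HBEGF gave the same direction with a less certain size. In the fit over all libraries 31 of 48 tested members fell, where 22.5% of all tested genes were called lower, and the members' median log2 change was -1.12 (all genes -0.10). Without HBEGF replicate 1 and day 7 replicate 3 the members' median was -1.80, and without HBEGF replicate 2 it was -0.45. Either choice leaves 1 HBEGF library, so no calls are given for these fits. The first choice was made because the members were low in those libraries, which by itself raises the HBEGF mean. With the experiment fitted by itself, 2 libraries against 2, 0 of all 13850 genes were called, members included (7 members at an unadjusted p below 0.05 in that limma fit). For 46 of the 49 members both withdrawal libraries lay below both HBEGF libraries, which 37.1% of all tested genes showed; Nek2, Cenpa and Cdc20 were the exceptions. After median-of-ratios scaling the count was 39, beside 25.7% of all tested genes. Ratios of means ran from 2.08-fold lower (Espl1) to 11.6-fold lower (Dlgap5), with a median of 4.45.

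Mki67 was at 11.97 and 59.6 RPKM with HBEGF and at 5.92 and 4.77 RPKM without it, a log2 change of -2.15 (SE 0.69, adjusted p = 0.0227 by limma). Top2a was at 9.13 and 31.9 RPKM against 3.31 and 3.70 RPKM, with an adjusted p of 0.00821. The withdrawal libraries lay close together while the HBEGF libraries differed several-fold. Cdk1 was at 3.47 and 8.96 RPKM against 0.834 and 0.838 RPKM and fell by 1.86 (SE 0.41, adjusted p = 0.002). Ccna2 was at 10.9 and 37.6 RPKM against 3.99 and 3.93 RPKM (adjusted p = 0.0101). The B-type cyclins did not pass: Ccnb1 was at 0.909 and 5.99 RPKM against 0.695 and 0.351 RPKM (adjusted p = 0.0512), and Ccnb2 at 0.705 and 4.62 against 0.464 and 0.430 RPKM (adjusted p = 0.0783). For these the lower HBEGF library stood only a little above the withdrawal libraries.

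By role, the calls were uneven. All 4 checkpoint genes and all 5 condensin subunits fell, with Ttk at 0.798 and 2.17 RPKM against 0.166 and 0.116 RPKM, 10.5-fold lower, and Smc2 at 2.79 and 6.00 against 1.16 and 0.924 RPKM (adjusted p = 0.0014 by limma). Birc5 and Cdca8, the passenger partners, fell 5.22-fold and 5.51-fold. Of the kinases Aurka, Aurkb and Pbk fell, and Plk1 (0.862 and 4.28 against 0.645 and 0.762 RPKM) and Nek2 did not pass. Of the 4 mitotic exit genes, Cdc20, Ube2c, Espl1 and Cdca3, none passed, though 4 of 4 were lower in the mean. Cdc20 was at 1.36 and 9.30 RPKM with HBEGF and at 1.34 and 1.56 RPKM without it, so its lower control library lay between the withdrawal libraries. Cenpa, of the centromere, was at 1.48 and 12.03 RPKM against 2.45 and 1.63 RPKM, with its lower control library below both. Foxm1 fell, at 3.998 and 12.2 against 1.95 and 1.81 RPKM (adjusted p = 0.0147). Of the cytokinesis genes Kif23, Ect2 and Anln fell, and Kif20a, Racgap1 and Prc1 did not pass. Set against the mean of the withdrawal libraries, HBEGF replicate 1 was 0.728-fold (Cenpa) to 5.65-fold (Ttk) for the members, median 1.91, and replicate 2 was 2.91-fold (Espl1) to 18.2-fold (Dlgap5), median 7.15.

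**Figure D4:**
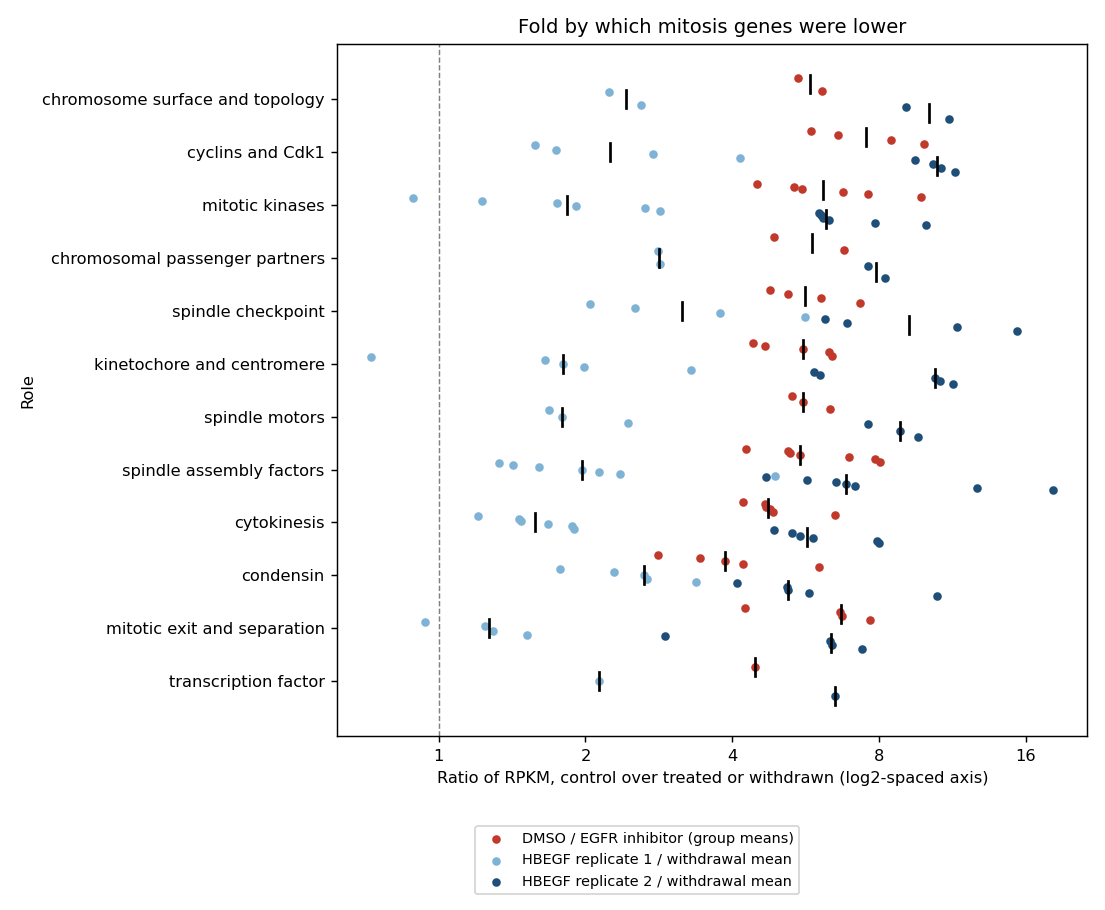
Ratio of RPKM, control over treated or withdrawn, on a log2-spaced axis by role (rows): each point is a mitosis gene, red for EGFR DMSO over EGFR inhibitor means, light and dark blue for HBEGF replicate 1 and replicate 2 over the withdrawal mean, and black ticks are role medians. The red points span 2.81 to 9.90 and lie between the light blue (median 1.91) and dark blue (median 7.15) points in most roles.

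Here too other values moved. Astrocyte markers summed to 125 to 131 RPKM with HBEGF and 290 to 314 without it. Within that sum Gfap was at 5.80 and 3.23 RPKM and then 63.5 and 60.2, Sox9 at 50.98 and 41.2 and then 103 and 111, and Aldoc at 26.0 and 31.2 and then 63.7 and 78.4 RPKM. Slc1a3 went the other way, at 17.5 and 16.6 and then 11.1 and 12.4 RPKM, as did Aldh1l1, at 1.05 and 1.28 and then 0.555 and 0.377 RPKM. The sums were 4.14 to 6.37 and then 6.05 to 6.42 RPKM for neuron markers, 0.239 to 0.300 and then 1.88 to 2.26 for pericyte or fibroblast markers, and for oligodendrocyte precursor markers 391 to 418 and then 92.5 to 98.7. Most of the fall in the precursor sum lay in Olig1 and Olig2. Olig1 was at 259 and 244 and then 44.4 and 54.3 RPKM, and Olig2 at 144 and 136 and then 32.96 and 33.9. Pdgfra was lower too, at 2.86 and 2.82 and then 0.859 and 1.76 RPKM. Gpr17 was at 7.28 and 4.56 and then 7.302 and 4.52 RPKM, and Sox10 at 4.32 and 3.12 and then 6.63 and 3.46. Cspg4 was at 0.446 and 0.5496 and then 0.391 and 0.781 RPKM. Microglia markers summed to 0.0350 to 0.232 RPKM with HBEGF and 12.9 to 27.3 without it, oligodendrocyte markers to 8.65 to 17.6 and then 26.8 to 29.3. Most of the microglia sum was Lyz2, at 10.4 and 23.5 RPKM without HBEGF. There C1qc was at 1.17 and 1.83 RPKM and Cx3cr1 at 0.00273 and 0.00472 RPKM. Mitochondrial rRNA took 17.13% and 18.19% of reads, and 29.68% and 27.86% without HBEGF. Their part in the change was not tested. The difference between the EGFR inhibitor change and the HBEGF withdrawal change was itself tested: 0 of 48 members passed (1.83% of all tested genes did, in either direction), 0 had an unadjusted p below 0.05 in limma, and voom on recovered reads called 0. The members' median difference was -0.43. It was 0.21 without HBEGF replicate 1 and day 7 replicate 3, with 4 members at an unadjusted p below 0.05, and -1.06 without HBEGF replicate 2, with 28 of 48 at an unadjusted p below 0.05. Its sign thus turned on the library used. A difference that does not pass does not show that the 2 treatments acted alike.

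With the P53 inhibitor the ratios were small. None of the 48 tested members was called, higher or lower, where 0.0289% of all tested genes were called higher. The members' median log2 change was 0.24 (all genes -0.01). In limma 0 members had an unadjusted p below 0.05 in the fit over all libraries, and 31 did with this experiment fitted by itself. Without HBEGF replicate 1 and day 7 replicate 3, left out because the members were low in them, 22 did. The voom fit called 0. Still, 37 of the 49 members were higher in every P53 inhibitor library than in every P53 DMSO library, a pattern that 9.05% of all tested genes showed. Ratios of means ran from 0.921 (Birc5) to 1.51 (Pbk), with a median of 1.24.

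Pbk was at 4.85, 5.86 and 5.36 RPKM in DMSO and at 8.05, 8.17 and 8.05 RPKM with the P53 inhibitor, a log2 change of 0.52 (SE 0.41, adjusted p = 0.828 by limma). Top2a was at 15.6, 14.4 and 16.5 RPKM against 21.7, 21.4 and 20.96 RPKM (log2 change 0.44, adjusted p = 0.882). Mki67 was at 36.8, 29.6 and 34.0 RPKM against 45.0, 42.8 and 47.4 RPKM. In each of these genes the groups did not overlap. Ckap2, a spindle protein, was at 5.25, 5.29 and 5.51 RPKM and at 7.73, 7.80 and 7.297 RPKM, and Cenpf, of the outer kinetochore, at 8.49, 5.39 and 7.82 and at 10.7, 9.66 and 11.0 RPKM. Cdk1 was at 3.87, 4.68 and 4.35 RPKM against 5.71, 6.01 and 5.01 RPKM, 1.30-fold. Foxm1 was at 7.69, 7.55 and 7.42 RPKM against 10.3, 8.75 and 9.65 RPKM, 1.27-fold. Not all members shared this pattern. Birc5 was at 7.06, 6.96 and 5.88 RPKM against 6.68, 6.23 and 5.41 RPKM, and Ccnb2 at 3.21, 3.58 and 2.98 against 3.30, 3.23 and 3.20 RPKM. Espl1 and Kif2c, the other members with the smallest changes, had ratios of 0.987 and 1.05. The mitotic exit genes had a median ratio of 1.14 and the spindle assembly factors one of 1.31. The P53 inhibitor libraries held 8940712, 9121758 and 6090305 reads and the DMSO libraries 4538708, 7058195 and 4715579. Astrocyte markers summed to 146 to 151 RPKM in DMSO and 116 to 117 with the inhibitor, oligodendrocyte markers to 5.75 to 6.22 and then 3.75 to 4.21, and neuron markers to 3.87 to 4.66 and then 3.30 to 3.76. The astrocyte sum moved mostly by Sox9, at 65.7, 67.6 and 64.2 and then 42.9, 39.4 and 43.8 RPKM. Slc1a2 went the other way, at 3.15, 3.70 and 3.33 and then 4.97, 5.23 and 5.31 RPKM. The median log2 change of the 10 astrocyte markers was -0.03, and 0 of them were called. The oligodendrocyte precursor sum overlapped, at 430 to 510 and 408 to 443 RPKM. Within it Gpr17 was at 3.65 to 4.76 RPKM in DMSO and 0.396 to 0.710 with the inhibitor, Sox10 at 3.69 to 5.32 and then 1.37 to 1.59, and Pdgfra at 1.55 to 1.87 and then 0.665 to 0.737 RPKM. The part of depth and of these markers in the members' values was not tested.

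Over time in culture the members were highest on day 2. From day 2 to day 7, 30 of 48 tested members fell, where 9.59% of all tested genes were called lower, and the members' median log2 change was -1.04 (all genes -0.05). Without day 7 replicate 3 and HBEGF replicate 1, 34 fell (6.54% of all genes called lower) with a smaller median, -0.52. With only day 7 replicate 3 left out 2 fell, beside 5.6% of all genes, and with the time course fitted by itself none passed, beside 0.866% of all genes (39 at an unadjusted p below 0.05 in limma). Leaving out day 2 replicate 2 gave 3 beside 4.43% of all genes, and leaving out day 2 replicate 3 gave 7 beside 8.17%. The other fits gave more: 23 without day 2 replicate 1 (beside 8.61%), 40 without day 7 replicate 1 (7.49%) and 45 without day 7 replicate 2 (7.92%). All 49 members were lower in every day 7 library than in every day 2 library, a pattern that 17.9% of all tested genes showed. Ratios of means were 1.80-fold lower (Mad2l1) to 3.31-fold lower (Cdc20) with all libraries, median 2.18. With day 7 replicates 1 and 2 alone they were 1.33-fold (Nusap1) to 2.33-fold (Cdc20), median 1.57.

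Cdc20 was at 10.3, 15.4 and 12.2 RPKM on day 2 and at 5.31, 5.52 and 0.616 RPKM on day 7, and had the largest log2 change, -1.73 (SE 0.45, adjusted p = 0.0165 by limma). Ube2c, its partner in the same degradation step, was at 17.5, 22.4 and 16.6 RPKM against 9.47, 12.1 and 1.26 RPKM (adjusted p = 0.0401). Even without the low replicate 3 both were below their day 2 values. Ccna2 was at 31.6, 43.05 and 42.1 RPKM against 22.4, 23.3 and 3.15 RPKM (adjusted p = 0.0371), and Aurka at 2.28, 3.25 and 3.04 against 1.33, 1.19 and 0.191 RPKM (adjusted p = 0.00752). Mki67 did not pass: it was at 43.2, 46.7 and 72.8 RPKM on day 2 and at 35.03, 37.6 and 4.41 RPKM on day 7 (adjusted p = 0.0967). Its first 2 day 7 libraries lay only a little below its lower day 2 libraries. None of the 5 kinetochore genes passed, while all 5 condensin subunits did, with Smc4 at 13.9, 11.9 and 19.6 RPKM and then 8.77, 9.10 and 4.19 RPKM (adjusted p = 0.0158). Ttk (-0.67), Espl1 (-0.68) and Ect2 (-0.70) had the smallest log2 changes, of which Espl1 and Ect2 passed. Foxm1 fell, at 11.4, 12.3 and 13.3 RPKM against 7.16, 6.96 and 1.32 RPKM.

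From day 2 to day 14, 19 of 48 tested members fell, where 17.6% of all tested genes were called lower. Their median log2 change was -0.82 (all genes -0.11). Without the libraries that stood apart all 48 fell, with 19.0% of all genes called lower. Neither library is in these groups, so only the estimate of the spread differed. That estimate was narrowed by leaving out libraries picked for the members' own low values. With 1 library of these groups left out, 4 of 48 fell without day 2 replicate 2 (8.33%, beside 11.6% of all genes) and 4 without day 2 replicate 3 (beside 16.5%). Without day 14 replicate 1 it was 2 (4.17%, beside 11.5%) and without day 14 replicate 2 it was 6 (12.5%, beside 16.5%). In each of these the share of members was below that of all genes. Without day 2 replicate 1 the count was 15 (31.25%, beside 16.2%), and without day 14 replicate 3 it was 19 (39.6%, beside 15.4%). In those fits the share of members was above that of all genes. For 48 of 49 members every day 14 library lay below every day 2 library, Cenpf being the exception, and 24.7% of all tested genes showed this; after median-of-ratios scaling 43 members did, beside 15.1% of all tested genes. Ratios ran from 1.55-fold lower (Ckap2) to 2.66-fold lower (Ube2c), median 2.12. Ube2c was at 5.05, 6.88 and 9.29 RPKM on day 14 (log2 change -1.32, SE 0.48, adjusted p = 0.0552 by limma). Aurkb, at 17.6, 22.0 and 19.9 RPKM on day 2 and 6.56, 9.04 and 10.5 RPKM on day 14, was next to the threshold (adjusted p = 0.0514), and Ccna2 had an adjusted p of 0.0975. All 5 condensin subunits fell, Smc2 from 5.65 ± 0.693 to 2.65 ± 0.895 RPKM (adjusted p = 0.0094), as did Cdk1, from 8.36 ± 1.71 to 3.68 ± 1.18 RPKM (adjusted p = 0.0358). Espl1, of low level, had the smallest adjusted p of the members (0.00474). Nuf2 (-0.483), Nusap1 (-0.519), Ect2 (-0.580) and Ckap2 (-0.583) had the smallest changes, and of these only Ect2 passed.

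Between day 7 and day 14 no member was called (0.137% of all tested genes were, in either direction), 0 had an unadjusted p below 0.05 in limma and voom called 0. The members' median log2 change was 0.24, but -0.30 without day 7 replicate 3 and HBEGF replicate 1, with 24 members then at an unadjusted p below 0.05. Day 7 replicates 1 and 2 lay above every day 14 library for 20 of the 49 members, where 17.8% of all tested genes showed this, and above day 14 replicates 1 and 2 for 48, where 23.8% did. Their mean was 1.002-fold (Cdc20) to 1.55-fold (Ncapg) that of day 14, median 1.29. Day 14 replicate 3 stood at a median of 147% of the other day 14 libraries. Mki67 was at 24.001, 21.8 and 36.6 RPKM on day 14, so that its replicate 3 lay between the first 2 day 7 libraries. Astrocyte markers summed to 77.3 to 106 RPKM on day 2, 127 to 170 on day 7 and 137 to 233 on day 14, and mitochondrial rRNA took 12.24% to 16.02%, 18.86% to 19.38% and 20.13% to 23.85% of reads. The part of these in the members' levels was not tested.

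**Figure D5:**
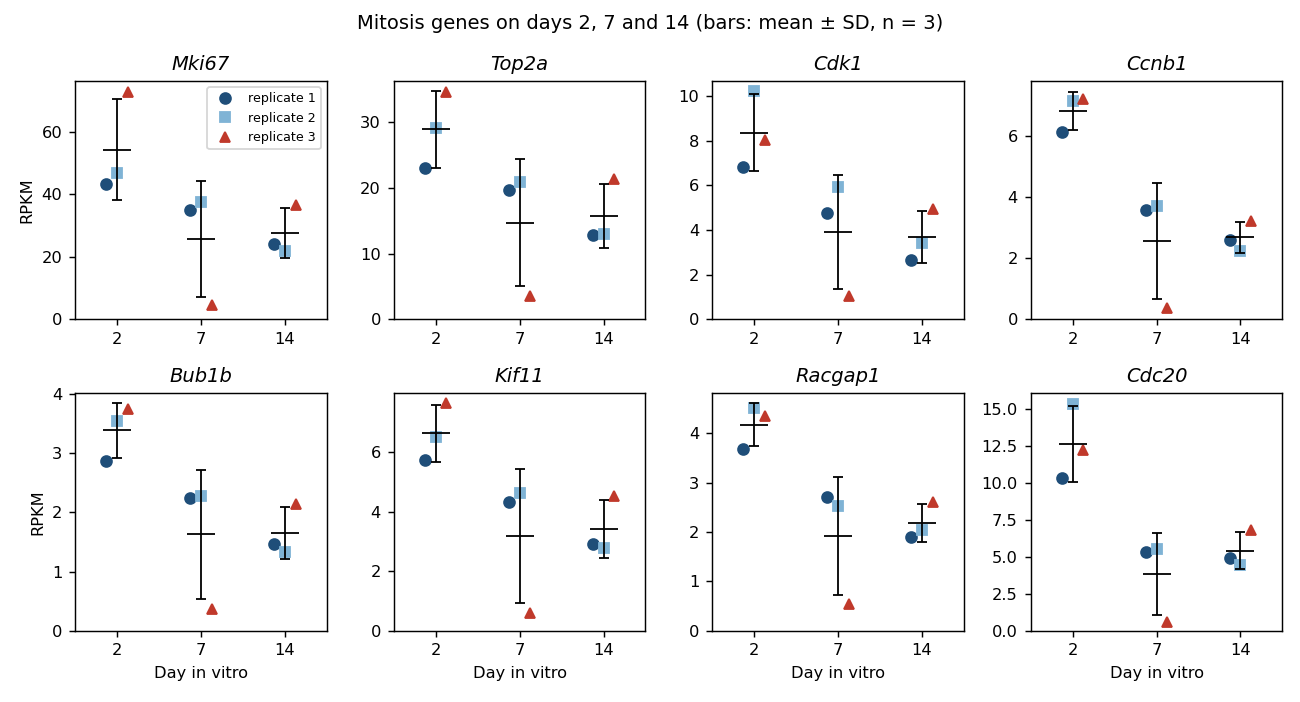
RPKM (y axis, from 0) on days 2, 7 and 14 (x axis) for 8 mitosis genes, with a point per library and bars for mean ± SD (n = 3). Day 7 replicate 3 (triangle) is the lowest point in every panel, and the first 2 day 7 libraries lie between or near the day 2 and day 14 values.

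Other genes of the same processes were read from lists beside the members. Of 56 tested other mitosis genes, 55 fell with the EGFR inhibitor, 0 rose, and the median log2 change was -1.07. Over all 13850 tested genes 22.2% were called lower with the EGFR inhibitor and 22.5% without HBEGF, while 2261 and 1390 genes were called higher. Cks1b, the small subunit that docks on Cdk kinases, was at 18.0 ± 2.72 and 4.11 ± 0.886 RPKM (log2 change -1.90, SE 0.25, adjusted p = 1.42e-05 by limma). The gene that did not pass was Pttg1, picked out here after its values were seen, which codes for securin, the inhibitor of the separase Espl1. Pttg1 was at 2.76, 2.999 and 3.10 RPKM in DMSO and at 2.80, 3.33 and 3.70 RPKM with the inhibitor (adjusted p = 0.650). Without HBEGF it rose, at 2.18 and 2.75 RPKM with HBEGF and 6.32 and 4.11 RPKM without (log2 change 0.82, SE 0.20, adjusted p = 0.00443), while 41 of the other mitosis genes fell. With withdrawal replicate 1 left out it no longer passed (log2 change 0.56), nor with the experiment fitted by itself. Espl1, its target, had lower means in both treatments and fell with the EGFR inhibitor.

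Of 16 tested DREAM complex and G2/M regulators, 11 fell and 1 rose with the EGFR inhibitor. There 22.2% of all 13850 tested genes were called lower and 2261 of them higher. Tfdp1, the partner of E2F factors, was at 3.06 ± 0.375 and 1.12 ± 0.0729 RPKM (adjusted p = 1.36e-05 by limma), and the gene that rose was Rbl2, which codes for p130 of DREAM in resting cells. Rbl2 was at 0.855, 1.03 and 0.981 RPKM in DMSO and at 1.28, 1.59 and 1.29 RPKM with the inhibitor (log2 change 0.29, SE 0.08, adjusted p = 0.00564). It also rose without HBEGF (0.970 and 0.989 against 1.62 and 1.68 RPKM, adjusted p = 0.00196), where 11 of the list fell, and from day 2 to day 14 (adjusted p = 0.0104). Of all 13850 tested genes 1390 were called higher without HBEGF and 769 from day 2 to day 14. Rbl2 was named after its values were seen. Of 14 APC/C genes 7 fell and 2, Anapc16 and Cdc26, rose with the EGFR inhibitor, with a list median of -0.20, and of 11 cohesin genes 8 fell and Mau2 rose. Smc1a, a cohesin ring subunit, was at 11.2 ± 0.780 and 4.90 ± 0.470 RPKM (adjusted p = 2.8e-05). Of 16 tubulin and microtubule genes that are not tied to the cell cycle 13 fell and Clasp1 rose, with a list median of -0.53. Tubb6, picked from this list by its p-value, was at 12.2 ± 1.79 and 0.836 ± 0.0805 RPKM. All 6 MCM2-7 genes fell, with a list median of -1.39; Mcm4 was at 12.02 ± 0.627 and 3.68 ± 0.556 RPKM (adjusted p = 8.45e-06). With the P53 inhibitor and between day 7 and day 14, 0 genes of any of these lists were called in limma. Few genes were called at all there: 0.0289% higher and 0.152% lower with the P53 inhibitor, and 0.137% between day 7 and day 14. From day 2 to day 14, 38 of the 56 other mitosis genes and 12 of the 16 DREAM and G2/M genes fell, where 17.6% of all tested genes were called lower.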

How the data were processed

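RNA from 25 astrocyte cultures had been sequenced, and the authors deposited 1 table of RPKM values with a column per library; the submitters' processing notes name STAR, HTSeq, edgeR, limma and the build GRCm38, without roles or versions. Values times the gene span of GENCODE M21 summed to 1000823 to 1004357 per library and with exon length to 377329 to 519639, so the length used was the span; 53824 of 54429 entries matched that annotation. Scaling each value back to reads gave a whole number, within 0.1, in 99.0% to 99.3% of entries of at most 20 reads, and 4011124 to 9694918 reads per library. From the table, log2(RPKM + 1) was fitted with limma 3.58.1 (R 4.3.3), trend and robust empirical Bayes, over all 25 libraries (residual degrees of freedom 16), for genes of at least 1 RPKM in at least 2 libraries, with Benjamini-Hochberg adjustment over 13850 genes and a threshold of 0.05. The fit was tested on simulated data. Groups came from the labels. Members named are those with the largest and smallest changes per comparison and fixed representatives of each role. Cks1b, Tfdp1, Smc1a and Tubb6 were picked from the other lists by their p-values, so after their values were seen. Mcm4 was not among the fixed genes. Pttg1 and Rbl2 are said to be named after their values were seen, and single marker genes beside the marker sums were picked in that way too. The members and lists were chosen with earlier results of these data known. Promoters are RefSeq, GRCm38.p6. Alternatives were another pseudocount, filters, scalings, voom on recovered reads, each experiment alone, a replicate block and leaving out libraries.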

Additional observations from a re-analysis of the deposited data

How the results depend on the processing

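With the EGFR inhibitor all 48 tested members were lower with each library left out in turn, and their median log2 change was -2.36 with a pseudocount of 0.1, -1.94 with a filter of 5 RPKM (26 of 26 lower), -1.63 with median-of-ratios scaling, -2.44 on log2(CPM + 1) and -2.37 with voom. For HBEGF withdrawal the count of members lower was 20 of 26 with the 5 RPKM filter (36.3% of all genes) and 20 of 48 with median-of-ratios scaling (13% of all genes). It was 9 with voom (14.18%) and 0 with the experiment fitted alone (0 of all genes). Leaving out a library of this experiment leaves 1 library in its group, so those fits are given by their changes alone. The count called there turned on which HBEGF library was kept. The median was -1.80 with a pseudocount of 0.1, -1.88 on log2(CPM + 1), and -1.80 to -0.45 over single libraries left out. It was -1.80 without HBEGF replicate 1 and day 7 replicate 3, an alternative chosen after seeing the data. Without HBEGF replicate 2 the changes of Cenpa (0.28), Cdc20 (0.055) and Nek2 (0.059) turned positive, and without the 2 libraries they were -2.11, -2.07 and -1.58. For the P53 inhibitor the median was 0.31 with a pseudocount of 0.1, 0.29 with the 5 RPKM filter, 0.27 with median-of-ratios scaling, 0.30 with quantile normalization, 0.33 on log2(CPM + 1), 0.36 with voom, and 0.23 to 0.28 over libraries left out. From day 2 to day 7 the count was 19 with median-of-ratios scaling (5.51% of all genes), 17 with quantile normalization (5.08%), 6 with voom (6.16%), 0 alone and 2 to 45 over libraries left out, where the median ran from -1.29 to -0.52. From day 2 to day 14 it was 6 of 48 with a pseudocount of 0.1 (16.7% of all genes), 10 of 49 without a filter (8.05%), 10 of 26 with the 5 RPKM filter (23.1%), 4 with median-of-ratios scaling (8.23%), 5 with quantile normalization (8.69%), 8 on log2(CPM + 1) (18.3%), 2 with voom (9.84%), 0 alone (6.84%), 48 without the 2 libraries and 2 to 19 over libraries left out; the median was -1.04 with a pseudocount of 0.1, -1.08 on log2(CPM + 1) and -0.93 to -0.75 over libraries left out. The EGFR minus HBEGF median was 0.21 without the 2 libraries and ran from -1.06 to 0.21, and the day 7 to day 14 median from -0.30 to 0.50. The cause of these shifts was not tested. Deviations of same-numbered libraries from their group means had correlations of -0.095 to 0.118. With 2 or 3 libraries per group these cannot show whether same-numbered libraries shared a preparation or animals. With a replicate block the counts were 18 for HBEGF withdrawal (20.3% of all genes), 6 for day 7 (6.27%) and 5 for day 14 (15.3%). Median-of-ratios scaling moved the median of all genes from -0.10 to 0.02 for HBEGF withdrawal and from -0.11 to 0 for day 14 against day 2. It changed the calls over all genes from 1390 higher and 3121 lower to 2296 and 1798 for HBEGF withdrawal, from 2261 and 3076 to 2971 and 2457 for the EGFR inhibitor, from 571 and 1328 to 666 and 763 for day 7, and from 769 and 2439 to 1202 and 1140 for day 14. Members with few reads are limited by depth, the fewest being 9 (Nek2).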
